A study of Mus musculus with 32 samples.

Results

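The Hox cluster genes are the 39 protein-coding mouse genes whose GENCODE M21 symbol starts with Hoxa, Hoxb, Hoxc or Hoxd followed by a digit. All 39 were found among the 55401 genes of each of the 5 expression tables, 11 in cluster A on chromosome 6, 10 in cluster B on chromosome 11, 9 in cluster C on chromosome 15 and 9 in cluster D on chromosome 2. RNA was sequenced in 32 libraries, 16 groups of 2, from OG2X129 mouse embryonic fibroblasts undergoing chemical reprogramming to induced pluripotent stem cells and from reference cells. In the first table CD3254 (CD), a ligand of retinoid X receptors, was added to reprogramming cultures and compared with the solvent DMSO. A second table set Rxra overexpression (Rxra-OE) against its control (CTR, genotype given as WT OE). Another set knockdown of Exosc3, a core subunit of the RNA exosome, by a short hairpin RNA (shE3) against a control hairpin (shCTR, genotype given as WT shRNA). The next followed CD and DMSO cultures through 0, 4 and 8 h of actinomycin D, which blocks transcription, and gave values that behave as read counts scaled to a common library total (CPM). The last held iPSC made with CD (CD-iPSC) or with DMSO (DMSO-iPSC, spelled DMSP in the sample titles), the starting fibroblasts (MEF) and R1 mouse embryonic stem cells, a line from the blastocyst. Where the labels list the reprogramming medium, treated and control cultures alike received VPA, CHIR99021, 616452, Parnate, Forskolin, 0.5 µM AM580, 5 µM EPZ004777 and vitamin C. AM580 activates retinoic acid receptors and EPZ004777 inhibits the H3K79 methyltransferase DOT1L, so no group in those tables lacked either. The MEF libraries are titled MEF, but their labels also give genotype WT shRNA and the treatment used for reprogramming. The sources used here do not give the day of harvest or the doses of CD3254 and actinomycin D.

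Hox genes encode homeodomain transcription factors that set position along the head-to-tail axis and along the limbs. Within a cluster the genes lie in the order of their paralog groups, and genes of low group number are as a rule expressed earlier and further forward than genes of high group number, which pattern the trunk, the limb ends and the tail. Fibroblasts keep a Hox pattern that records where in the body they came from, whereas Polycomb complexes hold the clusters silent in embryonic stem cells, and retinoic acid induces the low-numbered genes.

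The labels were checked before the Hox genes were read. Overexpression libraries held Rxra at 21.7 and 21.7 TPM (a level per transcript length) and CTR at 8.70 and 9.57, and Exosc3 was at 5.97 and 4.01 TPM in shE3 against 8.86 and 10.2 in shCTR. The MEF libraries held 16501 to 17263 TPM over 8 fibroblast markers and 0.491 to 0.700 TPM over 8 pluripotency markers, against 83.0 to 239 and 6161 to 7459 in the pluripotent cells. In the 3 reprogramming tables with TPM values the summed pluripotency markers never exceeded 5.36 TPM in any library, so those cultures had not reached the pluripotent level. MEF were low on this list too, so it does not tell those cultures from fibroblasts. Mitochondrial genes took a lower share of TPM in the treated libraries of each reprogramming table, which bears on the TPM of every other gene. It was 53.3 and 52.9% with CD against 57.1 and 55.4% with DMSO, 50.9 and 50.9% with Rxra-OE against 62.0 and 59.3% in CTR, and 11.9 and 11.8% with shE3 against 15.5 and 14.4% in shCTR. In the iPSC table it was 8.87 and 14.0% in CD-iPSC, 17.4 and 16.2% in DMSO-iPSC, 9.50 and 7.46% in MEF and 13.4 and 11.9% in R1, and its part in the Hox differences was not tested. The 12 actinomycin D libraries held 15382821 to 24186485 reads, while the depth behind the TPM tables is unknown, so no counting interval is given for a TPM value. In all tests below a gene was tested when it reached a value of 1 in at least 2 libraries of its table. It passed at a limma adjusted p under 0.05 over all genes tested. Counts at an unadjusted p under 0.05 are given without a share of all genes at that threshold. The labels do not say whether the 2 libraries of a group came from separate cultures, so the p-values measure only the spread between these samples. In bulk RNA, fewer cells of a type and less RNA per cell cannot be told apart.

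Promoter windows were available in the RefSeq set for 22 of the 39 genes, as 24 windows of 300 bases from 250 before to 50 after the transcription start (build GRCm38.p6). The 4 shown here belong to Hoxd13 and Hoxd9, genes of cluster D whose transcripts moved in opposite directions with CD, and to Hoxd4 and Hoxc4, paralogs whose transcripts were both higher with Rxra overexpression. Capitals mark AGGTCA, the core motif bound by retinoid receptors, or its complement TGACCT, and TATAAA, the TATA box, or its complement TTTATA. In the Hoxd13 window the TATA box is read on both strands from overlapping letters. The windows lie at chr2:74667975-74668274 for Hoxd13, chr2:74697513-74697812 for Hoxd9, chr2:74721728-74722027 for Hoxd4 and chr15:103034145-103034444 for Hoxc4, all on the plus strand, and are written 5′ to 3′.
Hoxd13: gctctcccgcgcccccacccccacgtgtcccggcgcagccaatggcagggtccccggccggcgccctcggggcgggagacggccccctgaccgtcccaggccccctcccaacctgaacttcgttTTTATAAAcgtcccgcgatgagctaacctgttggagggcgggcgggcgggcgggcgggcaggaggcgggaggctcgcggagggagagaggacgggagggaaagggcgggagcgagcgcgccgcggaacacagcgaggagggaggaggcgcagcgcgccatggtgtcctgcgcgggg
Hoxd9: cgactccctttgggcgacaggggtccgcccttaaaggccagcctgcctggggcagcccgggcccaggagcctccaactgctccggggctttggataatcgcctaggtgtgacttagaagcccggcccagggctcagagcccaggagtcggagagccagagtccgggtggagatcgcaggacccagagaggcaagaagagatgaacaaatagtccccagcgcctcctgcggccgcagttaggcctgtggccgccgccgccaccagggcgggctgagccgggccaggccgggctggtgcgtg
Hoxd4: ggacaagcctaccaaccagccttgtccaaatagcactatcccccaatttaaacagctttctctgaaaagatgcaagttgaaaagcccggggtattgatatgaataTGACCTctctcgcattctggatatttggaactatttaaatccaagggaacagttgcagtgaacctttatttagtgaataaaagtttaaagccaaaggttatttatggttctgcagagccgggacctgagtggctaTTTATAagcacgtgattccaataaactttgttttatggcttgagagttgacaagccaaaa
Hoxc4: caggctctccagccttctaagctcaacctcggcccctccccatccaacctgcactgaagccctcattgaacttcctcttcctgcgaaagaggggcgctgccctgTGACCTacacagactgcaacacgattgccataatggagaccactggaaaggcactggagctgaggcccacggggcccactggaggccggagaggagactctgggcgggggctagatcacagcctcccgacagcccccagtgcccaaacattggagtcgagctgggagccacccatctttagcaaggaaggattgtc
Either form of AGGTCA was in 7 of the 24 Hox windows, 29.2% against 16.3% of all 32851 windows of this length, and the 7 belonged to Hoxa5, Hoxb4, Hoxc4, Hoxd3, Hoxd4, Hoxd8 and Hoxd10. The TATA box was in 4 Hox windows, 16.7% against 13.6% of all windows, those of Hoxa10, Hoxb8, Hoxd4 and Hoxd13. CpG dinucleotides numbered 37 in the Hoxd13 window, 20 in that of Hoxd9, 9 in that of Hoxc4 and 4 in that of Hoxd4, and the median was 14.5 over Hox windows and 7 over all windows. Hoxa5, whose window holds AGGTCA, was also higher with Rxra overexpression, whereas Hoxd8, whose window holds it too, was lower there relative to the median gene. The windows of Hoxa9 and Hoxd11, both higher with Rxra overexpression, hold neither form. The windows of Hoxd4, Hoxc4 and Hoxa9 lie inside the GENCODE M21 spans of these genes, so each covers an internal start and not the outermost one. A match says only that the letters are present in the window, and a link between motif and direction was not tested.

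In the starting fibroblasts the Hox genes summed to 499 ± 33.0 TPM (SD, n = 2), and the sum was 39.05 ± 0.596 in DMSO-iPSC, 32.1 ± 0.891 in R1 and 23.5 ± 3.14 in CD-iPSC. The fibroblast pattern was led by genes of the middle and high paralog groups. Hoxb9, a trunk gene, stood at 69.8 and 65.6 TPM in the 2 MEF libraries, Hoxc6 at 52.3 and 62.2, and Hoxc8 at 43.6 and 45.0. Next came Hoxa10 at 34.7 and 36.0 TPM, the limb-end gene Hoxd13 at 28.7 and 33.9, and Hoxd8 at 27.2 and 34.8. Hoxb9, Hoxc6 and Hoxc8 did not overlap, whereas the libraries of Hoxd8 overlapped those of both Hoxa10 and Hoxd13, so those neighbours do not differ beyond their spread. Hoxb1, a hindbrain gene of paralog group 1, was listed at 0 in all 8 libraries of this table. Paralog groups 9 to 13 supplied 49.2% of the MEF Hox sum, groups 5 to 8 supplied 40.0% and groups 1 to 4 supplied 10.8%.

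**Figure D1:**
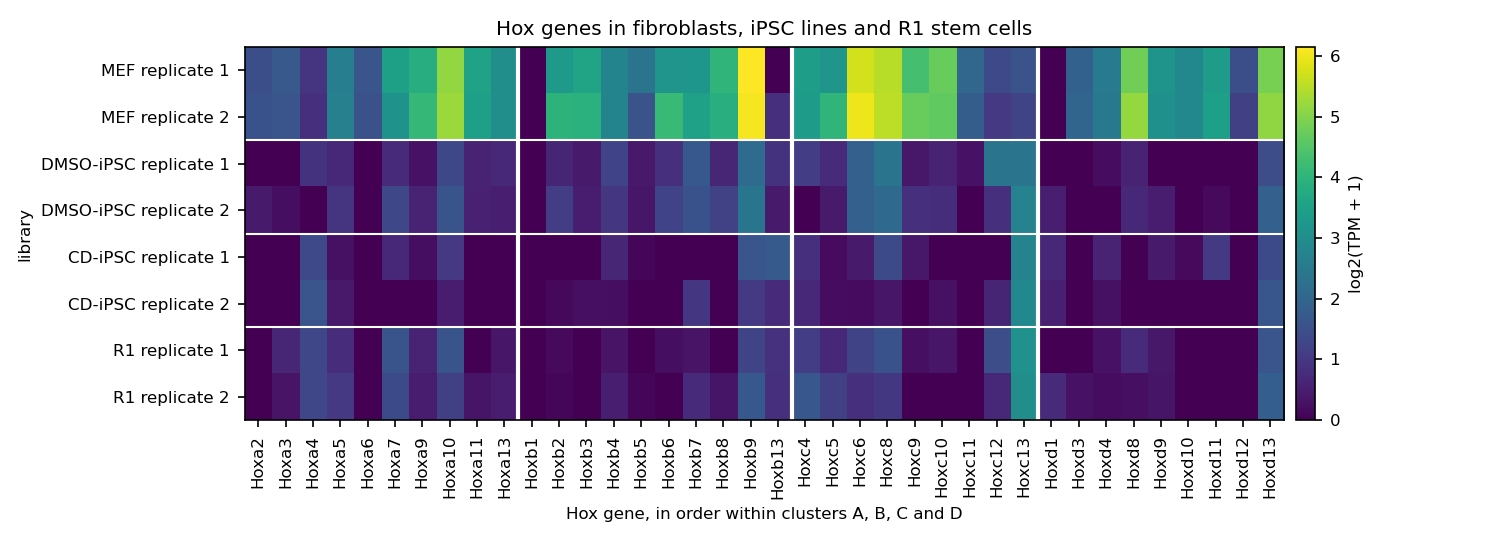
Levels of the Hox genes shown, as log2(TPM + 1) on the colour scale, in each of the 8 libraries of the iPSC table, with genes in order within clusters A to D. Both MEF libraries are bright over most of the 4 clusters, led by Hoxb9, and the 6 pluripotent libraries are dark over most genes, with Hoxc13 an exception.

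Of the 36 Hox genes tested, 32 were lower than in MEF in DMSO-iPSC, in CD-iPSC and in R1, against 36.2%, 35.4% and 32.9% of all genes lower in the same comparisons. These comparisons share the MEF libraries. Many of the tested Hox genes, among them Hoxa9, Hoxa11, Hoxb3, Hoxc10, Hoxd8 and Hoxd10, reached 1 TPM only in the 2 MEF libraries. Such genes passed the filter through the group where they were high, so their direction was largely fixed in advance. The counts and medians against MEF are therefore a description. The same filter was used for all genes and for the gene lists of this table. The median log2 difference over the tested Hox genes was -2.71 in DMSO-iPSC, -2.91 in CD-iPSC and -2.72 in R1, while the median gene moved by -0.01, 0.02 and 0.11. With each library centred on the median gene the counts were again 32 lower and 2 higher, against 33.8%, 34.1% and 33.8% of all genes lower and 34.6%, 35.3% and 35.1% higher. Hoxc6, which patterns the thorax, was listed at 0.363 and 0.132 TPM in CD-iPSC, 2.72 and 2.72 in DMSO-iPSC and 1.38 and 0.817 in R1. Its log2(TPM + 1) differed from MEF by -5.54 ± 0.21 (SE) in CD-iPSC (limma adjusted p 9.9e-07), by -3.96 ± 0.21 in DMSO-iPSC (4.3e-06) and by -4.80 ± 0.21 in R1 (1.6e-06). Every pluripotent library lay far under both MEF libraries for this gene. Hoxd8 was listed at 0 in both CD-iPSC libraries, at 0.500 and 0.625 TPM in DMSO-iPSC and at 0.698 and 0.197 in R1. Hoxc10, a hindlimb-level gene, was at 25.4 and 24.01 TPM in MEF, at 0 and 0.219 in CD-iPSC, at 0.505 and 0.754 in DMSO-iPSC and at 0.302 and 0 in R1. The genes Hoxa9, Hoxb3, Hoxa11 and Hoxd10 were among those with the smallest adjusted p in at least 1 of the comparisons, with MEF means of 14.6, 12.6, 10.4 and 6.32 TPM and no pluripotent library above 0.525 TPM for any of them. Hoxa11 shares 35.0% of its exon bases, and Hoxb3 52.9%, with antisense transcripts, and strand use in counting is not given in the sources used here, so their reads cannot be separated from those of the partner.

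Against MEF 2 Hox genes were higher in all 3 pluripotent cell types, among them Hoxc13. Hoxc13, the last gene of cluster C and known from hair follicles, was at 1.95 and 1.38 TPM in MEF, 4.14 and 5.56 in DMSO-iPSC, 5.73 and 6.27 in CD-iPSC and 7.62 and 7.21 in R1. All 6 pluripotent libraries were above both MEF libraries, by 1.13 ± 0.20 (SE) on the log2(TPM + 1) scale in DMSO-iPSC (limma adjusted p 0.0017), 1.40 ± 0.20 in CD-iPSC (0.00055) and 1.67 ± 0.20 in R1 (0.00022). The count higher in DMSO-iPSC was 1 without DMSO-iPSC replicate 1, DMSO-iPSC replicate 2 or MEF replicate 2. The share of all genes higher than MEF was 31.4% in DMSO-iPSC, 33.3% in CD-iPSC and 36.2% in R1. Hoxa4 and Hoxc12 passed in neither direction in any of the 3 comparisons, and Hoxb1, Hoxb13 and Hoxd1 were under the filter. By mean TPM, Hoxc13 was the highest Hox gene in CD-iPSC, in DMSO-iPSC and in R1.

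Cofactors and chromatin regulators of the Hox clusters were counted in the same table, beside 33.3% of all genes higher and 35.4% lower in CD-iPSC and 31.4% and 36.2% in DMSO-iPSC. Of 9 TALE homeodomain cofactors, which bind DNA with Hox proteins, 5 were lower and 2 higher than in MEF in each iPSC type, and the lower ones included Meis3 (0.180 TPM in CD-iPSC and 1.19 in DMSO-iPSC against 24.3 in MEF) and Meis1. Of 30 Polycomb genes, 18 were higher and 9 lower in CD-iPSC, and 16 were higher and 10 lower in DMSO-iPSC. The Polycomb genes with the largest differences were Cbx7, a chromodomain subunit, at 35.5 TPM in CD-iPSC, 74.4 in DMSO-iPSC and 0.828 in MEF, and Jarid2 and Mtf2, PRC2 accessory proteins, at 55.4 and 238 in CD-iPSC against 4.47 and 18.2 in MEF. Of 9 tested noncoding RNAs of the Hox clusters, 8 were lower in CD-iPSC and 7 in DMSO-iPSC, among them Hoxb5os, at 13.9 TPM in MEF and listed at 0 in all iPSC libraries. Genes that flank the clusters on the same chromosomes did not share this direction, since 10 of 17 were higher and 4 lower in CD-iPSC, and 5 were higher and 4 lower in DMSO-iPSC. Of 26 limb and positional identity factors outside the clusters, 22 were lower in CD-iPSC and 21 in DMSO-iPSC, with the limb mesenchyme factor Prrx1 at 268 TPM in MEF and 1.23 in CD-iPSC.

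Between the iPSC types, 10 of 36 Hox genes were lower in CD-iPSC than in DMSO-iPSC and 1 was higher, against 18.5% of all genes lower and 20.0% higher. Of the 10, 6 were in cluster B (Hoxb2, Hoxb4, Hoxb6, Hoxb7, Hoxb8 and Hoxb9), 2 in cluster A (Hoxa11 and Hoxa13) and 2 in cluster C (Hoxc6 and Hoxc8), while limma called 0 of the 8 tested genes of cluster D, where Hoxd8 was at an unadjusted p under 0.05 and 0 in CD-iPSC. The median log2 difference was -0.38 over the Hox genes, -0.87 over the 8 tested genes of cluster B and 0 over all genes. Relative to the median gene 11 were lower and 1 higher, against 20.7% and 17.9% of all genes. Hoxc6 showed the smallest adjusted p, with 0.363 and 0.132 TPM in CD-iPSC and 2.72 and 2.72 in DMSO-iPSC, a difference of -1.58 ± 0.21 (SE) on the log2(TPM + 1) scale (limma adjusted p 0.0017). Hoxc8 was at 1.60 and 0.295 TPM in CD-iPSC against 4.14 and 3.27 in DMSO-iPSC, a difference of -1.35 ± 0.35 (limma adjusted p 0.021). Hoxb9 was at 2.08 and 1.05 against 3.46 and 4.21 TPM, a difference of -0.94 ± 0.25 (0.023). For each of these genes both CD-iPSC libraries lay under both DMSO-iPSC libraries. Hoxb7 was listed at 0 and 0.969 TPM in CD-iPSC against 2.26 and 1.91, and Hoxb8 and Hoxa13 were listed at 0 in both CD-iPSC libraries against 0.590 and 1.32 TPM and 0.613 and 0.429 TPM in DMSO-iPSC. These levels are near the lower limit of the table. The gene that was higher was Hoxa4, at 1.56 and 2.09 TPM in CD-iPSC and 0.853 and 0 in DMSO-iPSC (1.05 ± 0.29, limma adjusted p 0.028).

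**Figure D2:**
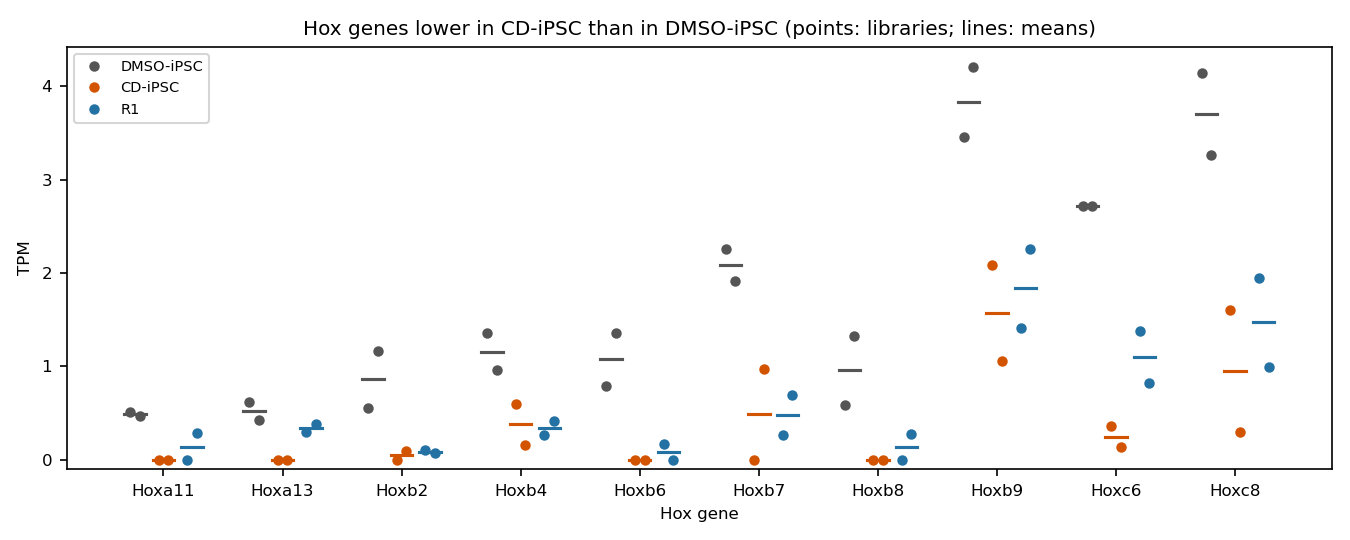
TPM of the 10 Hox genes that were lower in CD-iPSC than in DMSO-iPSC, with R1 beside them, where points are single libraries and short lines are group means. At Hoxc6 the DMSO-iPSC libraries sit at 2.72, the CD-iPSC libraries at 0.363 and 0.132 and the R1 libraries between them.

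The number of Hox genes lower in CD-iPSC than in DMSO-iPSC depended on single libraries. It was 5 without CD-iPSC replicate 1, 2 without CD-iPSC replicate 2, 2 without DMSO-iPSC replicate 1 and 3 without DMSO-iPSC replicate 2, and 6 when only these 4 libraries were fitted. Hoxc6 passed in each of these fits, whereas Hoxa4 lost its call without CD-iPSC replicate 1 or 2, without DMSO-iPSC replicate 2 (adjusted p 0.052, 0.11 and 0.094) and with only these groups fitted (0.13). By sums, paralog groups 5 to 8 stood at 13.8 ± 0.704 TPM in DMSO-iPSC, 7.37 ± 0.633 in R1 and 2.42 ± 0.776 in CD-iPSC (SD, n = 2 each), against 200 ± 21.6 in MEF. Other transcripts of MEF moved with these genes, since 8 fibroblast markers summed to 234 to 239 TPM in DMSO-iPSC, 90.3 to 105 in CD-iPSC and 83.0 to 90.4 in R1, with 5 of 8 lower in CD-iPSC and 1 of 8 at 0 there. Macrophage markers summed to 78.5 to 86.1 and 51.0 to 55.6 TPM, neural markers to 62.5 to 72.6 and 17.0 to 18.9, and short-lived reference mRNAs to 782 to 785 and 253 to 319, in DMSO-iPSC and CD-iPSC. The part of these other transcripts in the Hox difference was not tested.

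Against R1, 3 calls passed, while 7 of 36 Hox genes were lower in CD-iPSC and 10 higher in DMSO-iPSC at an unadjusted p under 0.05. The shares of all genes below are at the adjusted threshold, so the unadjusted counts cannot be set against them. Hoxa7 and Hoxc6 were lower in CD-iPSC than in R1 (-1.15 ± 0.31 and -0.74 ± 0.21, limma adjusted p 0.036 and 0.042), 2 of 36 against 16.3% of all genes, and none was higher against 7.44% of all genes, with none at an unadjusted p under 0.05 either. Hoxc6 was also the gene higher in DMSO-iPSC than in R1 (0.84 ± 0.21, limma adjusted p 0.032), 1 of 36 against 6.32% of all genes. None was lower in DMSO-iPSC than in R1 against 14.7% of all genes, and 2 were at an unadjusted p under 0.05. R1 thus lay between the iPSC types at Hoxc6, with 1.38 and 0.817 TPM. The median gene differed by -0.13 between DMSO-iPSC and R1, and relative to it 2 Hox genes were higher, against 9.31% of all genes (7.22% lower), while 1 was lower in CD-iPSC, against 12.5% (10.3% higher). No call of either comparison against R1 held in every fit without 1 library: the count of 2 became 1 without CD-iPSC replicate 1 and 0 without CD-iPSC replicate 2 or either R1 library, and the count of 1 became 0 without any of the 4 libraries compared. Without CD-iPSC replicate 2, 1 gene was higher in CD-iPSC than in R1, and without DMSO-iPSC replicate 1, 2 were lower in DMSO-iPSC than in R1.

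With CD in the reprogramming medium, 12 of 29 tested Hox genes were higher and 4 lower than with DMSO, against 43.1% of all genes higher and 19.5% lower, so neither share stood above that of genes at large. The median gene itself was higher by 0.18 on the log2(TPM + 1) scale, and the median Hox gene by 0.26. Relative to the median gene 9 were higher and 5 lower, against 30.5% and 31.1% of all genes. Named members differed in opposite directions. Hoxd9 stood at 5.08 and 6.15 TPM with CD and at 2.23 and 1.79 with DMSO, a difference of 1.13 ± 0.12 (SE, limma adjusted p 0.00045), or 0.97 relative to the median gene. The libraries of the groups lay far apart. Hoxb7 was at 4.93 and 6.04 TPM with CD and 2.89 and 2.84 with DMSO (0.74 ± 0.11, limma adjusted p 0.0014), and the other genes with the smallest adjusted p were Hoxc9 (0.65), Hoxb3 (0.77) and Hoxb6 (0.64). The level of Hoxb3 is uncertain because of the antisense sharing given above. Hoxa3, Hoxa9, Hoxb8, Hoxb13, Hoxc4 and Hoxd8 were also higher, by 0.27 to 0.62, of which Hoxa9, Hoxb8 and Hoxd8 did not pass relative to the median gene.

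Hoxb9 and Hoxd13, among the most abundant Hox transcripts of these cultures, moved the other way. Hoxb9 was at 6.37 and 6.68 TPM with CD and at 9.11 and 9.10 with DMSO, a difference of -0.43 ± 0.07 (SE, limma adjusted p 0.0028), or -0.61 relative to the median gene. Hoxd13 was at 6.96 and 9.03 TPM against 10.96 and 11.7, a difference of -0.47 ± 0.12 (limma adjusted p 0.015), or -0.66 relative to the median gene. No CD library reached a DMSO library for either gene. Hoxa11 (-0.34 ± 0.10) and Hoxd3 (-1.05 ± 0.16) were lower too, but both are uncertain. Hoxd3 shares 62.4% of its exon bases with other genes on the same strand, Hoxd4 among them, and Hoxa11 has the antisense sharing given above. Hoxd4 was lower relative to the median gene alone (-0.32). Without DMSO replicate 2 the count of lower genes was 2, since Hoxd13 (adjusted p 0.062) and Hoxa11 (0.11) no longer passed, and without CD replicate 2 Hoxa11 lost its call (0.088). Hoxa10, the highest Hox gene with CD at 11.5 and 12.4 TPM, did not pass against 10.5 and 11.7 with DMSO.

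**Figure D3:**
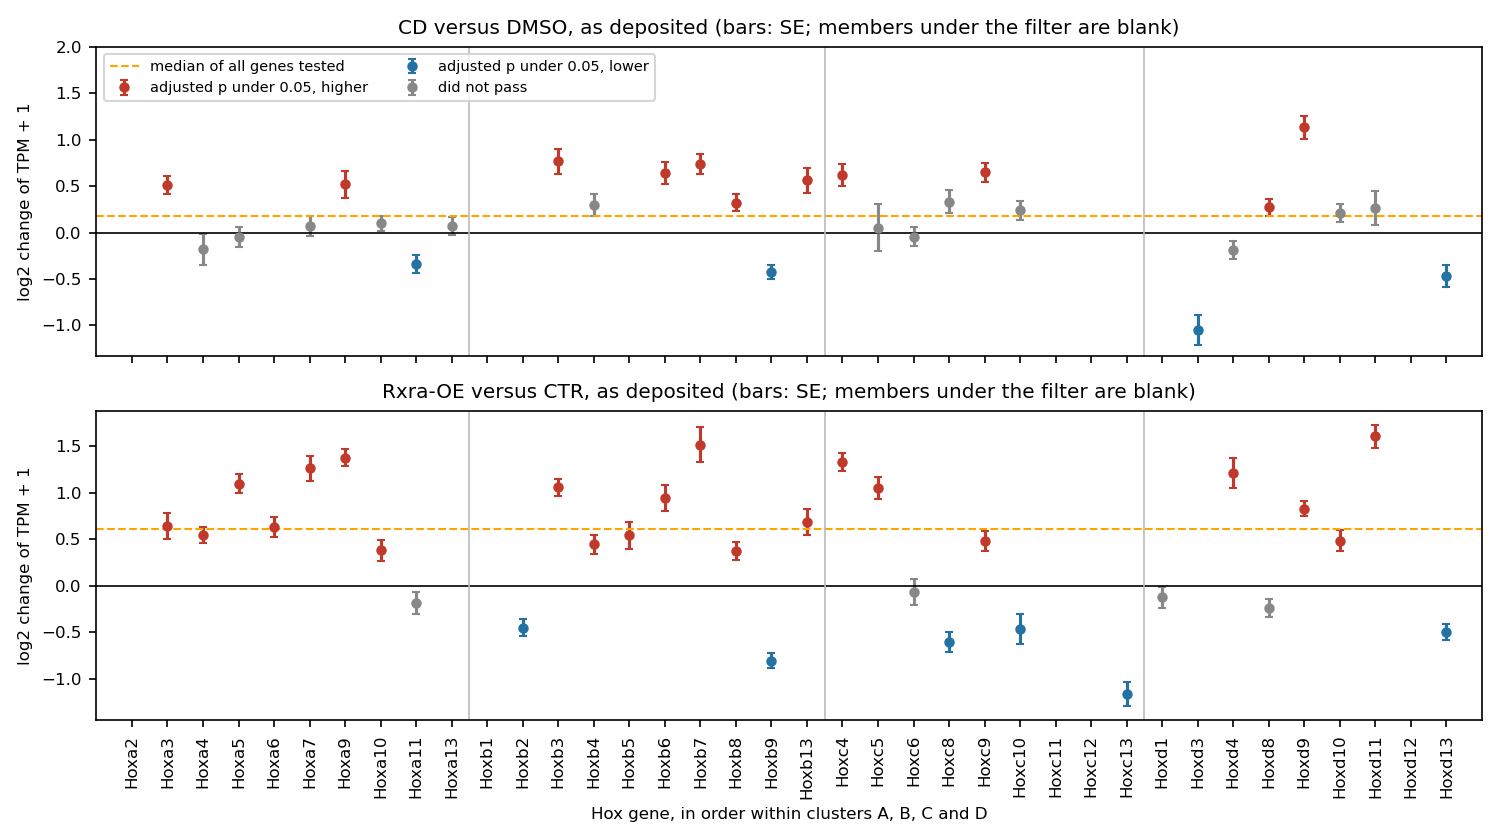
Log2(TPM + 1) differences of tested Hox genes, CD against DMSO above and Rxra-OE against CTR below, with SE bars and with the median of all genes tested as a dashed line. Hoxb9 and Hoxd13 sit below 0 in both panels, while Hoxb3, Hoxb7, Hoxc4 and Hoxd9 sit above the dashed line in both.

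By paralog group, the summed TPM with CD was 1.37 times that with DMSO for groups 1 to 4 (15.7 to 17.1 against 11.9 to 12.1 TPM over the libraries), 1.25 times for groups 5 to 8 (31.5 to 31.6 against 24.4 to 25.9) and 1.03 times for groups 9 to 13 (50.9 to 57.7 against 50.5 to 55.3). The last sum holds Hoxb9 and Hoxd13, which were lower. The median member difference was 0.41, 0.27 and 0.22 for these groups as deposited and 0.28, 0.09 and 0.10 relative to the median gene, so the middle and last groups were near each other by this measure. Markers of other states moved with the same libraries: 8 of 8 fibroblast markers were lower with CD, summing to 1038 to 1085 against 1637 to 1726 TPM, and 5 of 6 XEN-like endoderm markers were higher, summing to 556 to 575 against 127 to 152 TPM. Epithelial markers summed to 548 to 583 against 143 to 152 TPM, with 4 of 4 tested higher. No fibroblast or XEN-like marker was at 0 in any of these libraries, and the part of these cell states in the Hox differences was not tested.

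With Rxra overexpression 22 of 32 tested Hox genes were higher and 6 lower than in CTR, against 68.6% of all genes higher and 14.0% lower. The median gene was higher by 0.62, so the scale of this comparison is shifted, and relative to the median gene 11 Hox genes were higher and 12 lower, against 35.1% and 35.5% of all genes. Hoxd11, a limb gene, stood at 6.99 and 5.54 TPM with Rxra-OE and 1.25 and 1.4997 in CTR, a difference of 1.61 ± 0.12 (SE, limma adjusted p 4.8e-05), or 1.06 relative to the median gene. Hoxa9 was at 6.13 and 5.67 against 1.66 and 1.64 TPM (1.38 ± 0.09, limma adjusted p 2.6e-05), or 0.82 relative to the median gene. Hoxc4, whose promoter window is printed above, was at 4.46 and 4.205 against 1.20 and 1.04 TPM (1.33 ± 0.09, limma adjusted p 3.5e-05), or 0.82 relative to the median gene. Its paralog Hoxd4 was at 4.00 and 2.64 against 0.916 and 0.767 TPM, with the exon sharing noted above. Hoxb7 was the second most abundant Hox transcript with Rxra-OE, at 14.4 and 12.2 against 3.09 and 5.04 TPM. Hoxb3 (1.06), Hoxa5 (1.10) and Hoxd9 (0.83) were also higher, but Hoxd9 lost its call on that scale (0.16, limma adjusted p 0.092). Hoxb3 has the antisense sharing given above, so its level is uncertain.

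The genes lower with Rxra overexpression again included Hoxb9 and Hoxd13. Hoxb9, the highest Hox gene of this table, was at 18.7 and 18.9 TPM with Rxra-OE and at 33.6 and 33.5 in CTR, a difference of -0.81 ± 0.08 (SE, limma adjusted p 0.00014), or -1.52 relative to the median gene. Hoxd13 was at 2.13 and 2.31 against 3.48 and 3.597 TPM (-0.50 ± 0.09, limma adjusted p 0.0019), or -1.04 relative to the median gene. The groups did not overlap for either gene. Hoxc8 was at 3.26 and 2.98 against 4.84 and 5.69 TPM (-0.60 ± 0.10) and Hoxc13 at 0.614 and 0.931 against 2.68 and 3.26 TPM (-1.17 ± 0.13). Hoxb2 (-0.45), with 27.3% of its exon bases antisense to another gene, and Hoxc10 (-0.47) were lower too, and the Hoxc10 call was lost without Rxra-OE replicate 2 (adjusted p 0.12) or CTR replicate 2 (0.12). Hoxd8, at 10.6 and 11.8 against 12.8 and 13.9 TPM, was lower relative to the median gene alone (-0.93). Hoxa10 and Hoxb8 were higher as deposited (0.38 each) and lower relative to the median gene (-0.28 and -0.27), and Hoxb4, Hoxc9 and Hoxd10 changed sign on that scale without passing. The summed TPM with Rxra-OE was 1.91 times that of CTR for paralog groups 1 to 4, 1.53 times for groups 5 to 8 and 1.00 times for groups 9 to 13. Hoxb9 supplied 33.6 of the 65.4 TPM of groups 9 to 13 in CTR and 18.8 of 65.5 with Rxra-OE, while 7 of 12 tested members of these groups were higher as deposited and 4 lower. The median member difference was 0.64, 0.63 and 0.43 as deposited, and 0.25, 0.32 and -0.15 relative to the median gene, which is another order than that of the sums. Fibroblast markers summed to 670 to 674 against 1507 to 1707 TPM, with 7 of 8 lower, and XEN-like markers to 630 to 687 against 77.7 to 92.1 TPM, with 6 of 6 higher. Epithelial markers summed to 525 to 540 against 70.2 to 80.5 TPM, and the part of these states in the Hox differences was not tested.

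The other genes of the pathway were counted in both reprogramming comparisons, beside 43.1% of all genes higher and 19.5% lower with CD and 68.6% and 14.0% with Rxra-OE. Of 15 tested retinoic acid response and metabolism genes, 3 were higher and 10 lower with CD, led by the retinoic acid-degrading enzyme Cyp26a1 at 417 against 86.5 TPM, its relative Cyp26c1 at 13.8 against 3.46, and Lrat, which esterifies retinol, at 0.707 against 7.73. With Rxra-OE 6 of 16 were higher and 9 lower, with Cyp26a1 at 521 against 47.4 TPM. Relative to the median gene these counts were 3 higher and 11 lower, and 4 and 10. Of the upstream inducers of Hox clusters, 5 of 10 were higher and 5 lower with CD, and 7 of 11 higher and 3 lower with Rxra-OE, so the shares that were higher lay near those of all genes, and relative to the median gene they were 2 and 5, and 5 and 5. Among them Cdx2, a caudal homeobox factor, was at 24.9 against 5.08 TPM with CD and 24.3 against 2.23 with Rxra-OE. Of 29 tested Polycomb genes, 16 were higher and 2 lower with CD and 22 higher and 1 lower with Rxra-OE, and relative to the median gene these became 14 and 8, and 17 and 10. Ezh2, the PRC2 methyltransferase, was at 13.8 against 5.66 TPM with CD and 25.0 against 3.90 with Rxra-OE. Of 22 trithorax, Dot1l and H3K27 demethylase genes, 14 were higher with CD, and of 21 tested 17 were higher and 1 lower with Rxra-OE, while relative to the median gene these became 10 higher and 2 lower, and 12 and 4. Of 8 TALE cofactors, 3 were lower with CD, among them Meis2 at 13.6 against 28.7 TPM, whereas 3 were higher and 2 lower with Rxra-OE, where Pbx2 was higher at 13.2 against 6.85 TPM. With the median gene as the reference, 4 were lower with CD, and 1 was higher and 3 lower with Rxra-OE. Hotairm1, a noncoding RNA of cluster A, was higher in both, at 5.71 against 3.12 TPM with CD and 7.68 against 4.11 with Rxra-OE.

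Few Hox genes passed with Exosc3 knockdown. Of 33 tested genes 1 was higher and 1 lower, against 4.85% of all genes higher and 12.3% lower, and the median differences were -0.15 over the Hox genes and -0.04 over all genes. Hoxb9, the highest, was at 46.5 and 52.4 TPM with knockdown and 44.8 and 52.1 in control. Hoxd8 was at 30.0 and 28.3 against 29.4 and 28.4 TPM, and Hoxd13 at 19.4 and 19.7 against 19.8 and 20.1. The groups overlapped for Hoxb9 and Hoxd8 and lay close together without overlap for Hoxd13, and none of these passed. Hoxc5 was at 4.78 and 6.70 TPM with knockdown and 3.68 and 2.95 in control (0.63 ± 0.18 SE, limma adjusted p 0.035). Hoxd1 was at 0 and 1.55 TPM against 2.78 and 2.61 (-1.21 ± 0.35, limma adjusted p 0.036). Both lost their call when centred on the median gene (limma p of 0.065 and 0.11 after adjustment), where Hoxa10 alone was higher, by 0.32, against 14.2% of all genes higher and 13.9% lower. No gene was then lower by limma, with 3 at an unadjusted p under 0.05. The Hoxc5 call was lost without shE3 replicate 2 (0.28), shCTR replicate 1 (0.086) or shCTR replicate 2 (0.17). The Hoxd1 call was lost without shE3 replicate 1 (0.18), shCTR replicate 1 (0.21) or shCTR replicate 2 (0.19), and 2 genes were lower without shE3 replicate 2. The summed TPM with knockdown was 0.804 times that of control for paralog groups 1 to 4, 0.926 times for groups 5 to 8 and 1.01 times for groups 9 to 13. In the same libraries Cyp26a1 was lower, at 61.2 against 180 TPM, 9 of 29 Polycomb genes were lower, XEN-like markers summed to 88.4 to 95.6 against 252 to 275 TPM and macrophage markers to 349 to 353 against 136 to 164 TPM.

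Before actinomycin D, at 0 h, the contrast of CD with DMSO could be read in a separate set of libraries. Of 35 tested Hox genes 3 were higher and 1 lower, against 8.22% and 6.41% of all genes, with a median gene shift of 0.19. Relative to the median gene the counts were also 3 and 1, against 6.77% and 9.27% of all genes. Hoxd9 was at 22.8 and 19.2 against 12.9 and 5.17 CPM (1.24 ± 0.34, limma adjusted p 0.038), and Hoxa9 at 20.9 and 18.4 against 11.8 and 8.1996 (0.93 ± 0.24, limma adjusted p 0.032). Hoxb9 was at 46.0 and 49.8 against 79.1 and 65.7 CPM (-0.58 ± 0.14, limma adjusted p 0.025). The groups did not overlap for any of these, but the 2 libraries of a group could lie apart, as at 12.9 and 5.17 for Hoxd9 with DMSO. The same libraries stood apart at 20 short-lived mRNAs such as Fos and Myc, which summed to 5683 and 1653 CPM with CD and 1420 and 530 with DMSO, and at XEN-like markers, which summed to 3425 and 1564 and to 904 and 434. The counts of higher and lower genes became 0 and 0 without CD 0h replicate 1, 6 and 2 without CD 0h replicate 2, 12 and 0 without DMSO 0h replicate 1, and 0 and 0 without DMSO 0h replicate 2. They were also 0 and 0 with spike-in scaling and with only these 4 libraries fitted. The calls thus depend on the scaling and on the libraries fitted, and why was not tested. Same-numbered CD and DMSO libraries at 0 h deviated together over all genes (correlation 0.54), and the main fit took them as unpaired.

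After 8 h of actinomycin D some Hox transcripts had lost most of their level and others kept it, and the median Hox gene kept less than the median of all genes. Among genes with at least 20 reads at 0 h, the median Hox gene kept 53.9% of its 0 h CPM in DMSO cultures (35 genes) and 47.3% in CD cultures (37 genes), while the median of all genes was 75.2% and 74.8%. At 4 h these medians were already 54.9% and 45.2%, against 81.5% and 78.3% of all genes. CPM is a share of the RNA in the library, so each value is relative to the other transcripts. Fewer than 50% of the 0 h CPM was left for 15 of 35 Hox genes with DMSO and 19 of 37 with CD, against 24.7% and 30.7% of all genes. By limma 9 of 35 tested Hox genes were lower at 8 h with DMSO, against 27.2% of all genes, and 20 of 35 with CD, against 41.3%. None was higher as deposited in either arm, against 3.73% and 13.2% of all genes. At an unadjusted p under 0.05 the numbers higher were 0 with DMSO and 3 with CD. On the recovered reads edgeR called 1 Hox gene higher with DMSO and 4 with CD, against 2307 and 4633 of all 17064 genes. DESeq2 called 2 and 4, against 3010 and 4192 of all 17064 genes. The median gene itself moved by -0.33 with DMSO and -0.34 with CD. Relative to it 2 Hox genes were higher and 2 lower with DMSO, against 17.0% and 13.4% of all genes, and 4 were higher and 13 lower with CD, against 24.7% and 29.4%.

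**Figure D4:**
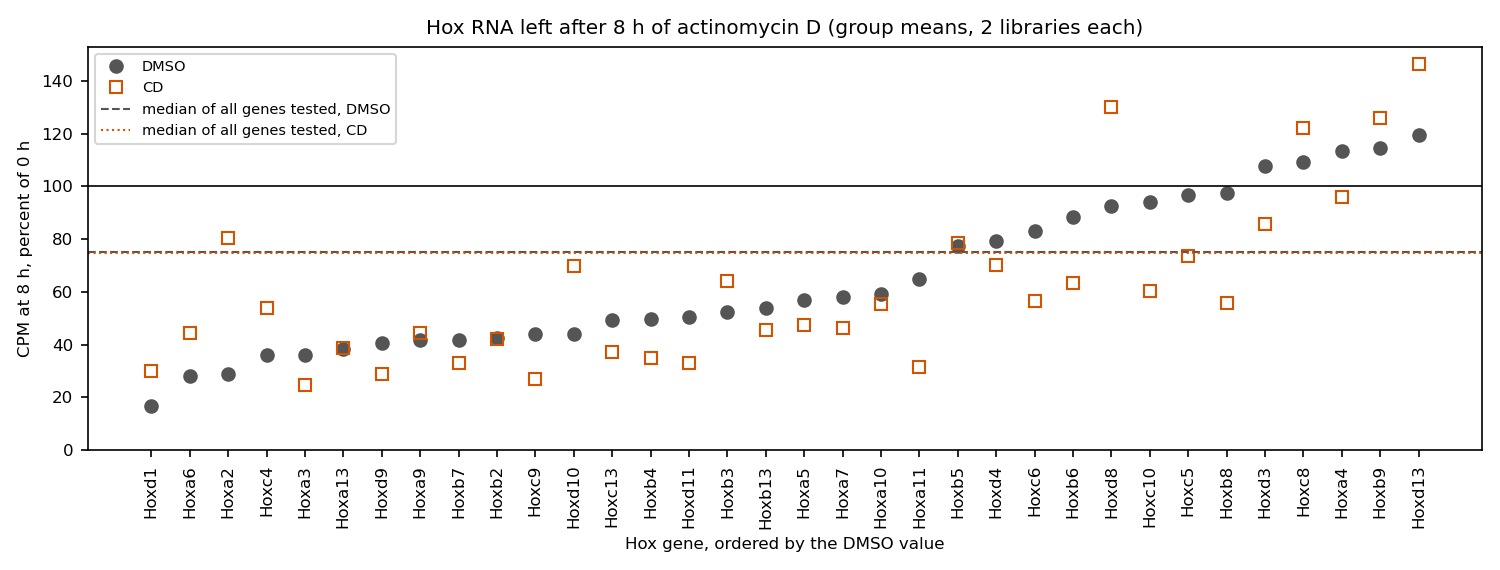
Percent of the 0 h CPM left after 8 h of actinomycin D for Hox genes with at least 20 reads at 0 h, in DMSO cultures (filled circles) and CD cultures (open squares), ordered by the DMSO value, with the medians of all genes as broken lines. Hoxd9 and Hoxc9 lie under 50 percent in both arms, and Hoxb9, Hoxc8 and Hoxd13 lie above 100 percent in both.

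Hoxd9 and Hoxa9 were lower at 8 h in both arms. Hoxd9 went from 12.9 and 5.17 to 2.88 and 4.49 CPM with DMSO (40.7% left) and from 22.8 and 19.2 to 5.79 and 6.28 with CD (28.8% left), where the difference was -1.64 ± 0.34 (limma adjusted p 0.0035). Hoxa9 went from 11.8 and 8.1996 to 3.96 and 4.36 CPM with DMSO (-1.07 ± 0.24, limma adjusted p 0.011) and from 20.9 and 18.4 to 10.3 and 7.15 with CD (-1.11 ± 0.24, 0.0039). In CD cultures Hoxc9 (-1.51), Hoxb4 (-1.38) and Hoxd11 (-1.22) had the next smallest adjusted p, and in DMSO cultures Hoxc4 (-1.17), Hoxa2 (-0.65), Hoxa13 (-0.80) and Hoxb2 (-0.77). The low-level genes among them, such as Hoxa2 at 35 reads over the 2 libraries at 0 h with DMSO, rest on few reads.

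Hoxb9, Hoxd13 and Hoxc8 were above 100% of their 0 h CPM at 8 h in both arms, after lower values at 4 h. Such values were not particular to Hox genes. At or above 100% at 8 h were 5 of 35 Hox genes with DMSO, against 27.4% of all genes. With CD they were 4 of 37, against 33.5% of all genes. Hoxb9 was at 79.1 and 65.7 CPM at 0 h, 62.8 and 56.5 at 4 h (82.4% of 0 h) and 77.7 and 88.4 at 8 h (115%) with DMSO. With CD it was at 46.0 and 49.8 CPM, then 44.4 and 44.3 (92.7%) and then 58.4 and 62.2 (126%). Hoxd13 was at 14.9 and 21.3 CPM, then 13.2 and 15.0 (77.9%) and then 22.2 and 21.1 (120%) with DMSO. Its course with CD was 11.4 and 15.0, then 9.20 and 9.49 (70.8%) and then 18.0 and 20.7 (146%). Hoxc8 stood at 67.6% at 4 h and 109% at 8 h with DMSO and at 80.7% and 122% with CD, so none of these genes had its lowest level at the last time point. Relative to the median gene Hoxb9 was higher at 8 h by 0.62 with DMSO and 0.69 with CD, and Hoxd13 by 0.67 and 0.87. As deposited, the DMSO libraries at 0 h and 8 h overlapped for both of these genes, whereas those with CD did not. Hoxc8 (0.57) and Hoxd8 (0.74) were also higher with CD relative to the median gene. Scaled to the spike-ins, which took 0.127 to 0.218% of the signal, Hoxb9 stood at 94.2% and Hoxd13 at 101% of 0 h with DMSO at 8 h, and at 98.6% and 117% with CD, where Hoxd8 stood at 104%. Why values exceeded 100% was not tested. The Hoxd13 window printed above carries a TATA box and 37 CpG, and no Hoxb9 window was used here. The other genes with a TATA box in a window, Hoxa10, Hoxb8 and Hoxd4, kept 59.3%, 97.5% and 79.3% with DMSO at 8 h. With CD they kept 55.4%, 55.7% and 70.1%. A link between these letters and the RNA left was not tested.

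Decay was not shown to differ between CD and DMSO for any Hox gene. The difference of the 8 h changes gave 0 calls in either direction among 35 Hox genes with limma, against 0.00586% of all genes called. At an unadjusted p under 0.05, 0 were higher and 1 lower. On the recovered reads edgeR and DESeq2 also called 0 Hox genes. Over all 17064 genes edgeR called 1 higher and 0 lower, and DESeq2 called 28 higher and 25 lower. Single libraries moved the counts within each arm. With DMSO the 9 lower genes became 0 without DMSO 0h replicate 1, 15 without DMSO 0h replicate 2 and 0 without DMSO 8h replicate 1. With CD the 20 became 7 without CD 0h replicate 1, 12 without CD 8h replicate 1 and 11 without CD 8h replicate 2, and without CD 0h replicate 2 there were 2 higher genes. The lower counts were 2 and 9 with edgeR on the recovered reads, against 2377 and 4641 of all 17064 genes. With DESeq2 they were 3 and 11, against 2623 and 4896 of all 17064 genes.

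Across the Hox genes, those lost fastest in DMSO cultures tended to be those higher with CD in the separate reprogramming table. Over the 29 genes tested in both, the 8 h change in DMSO cultures and the CD against DMSO difference had a Pearson r of -0.66 and a Spearman rho of -0.63. Over all 12723 genes tested in both the values were -0.44 and -0.44, so genes at large had the same direction. The same 8 h change set against the Rxra-OE difference gave r of -0.46 and rho of -0.44 over 32 Hox genes and -0.40 and -0.41 over 12992 genes, and against Exosc3 knockdown 0.32 and 0.27 over 33 Hox genes and 0.30 and 0.32 over 14209 genes. These are correlations across genes, which are not independent replicates and share libraries within a table, and they are given as a description. Hoxd9 and Hoxb7 stand at the corner of fast loss and higher level with CD, and Hoxb9 and Hoxd13 at the opposite corner.

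**Figure D5:**
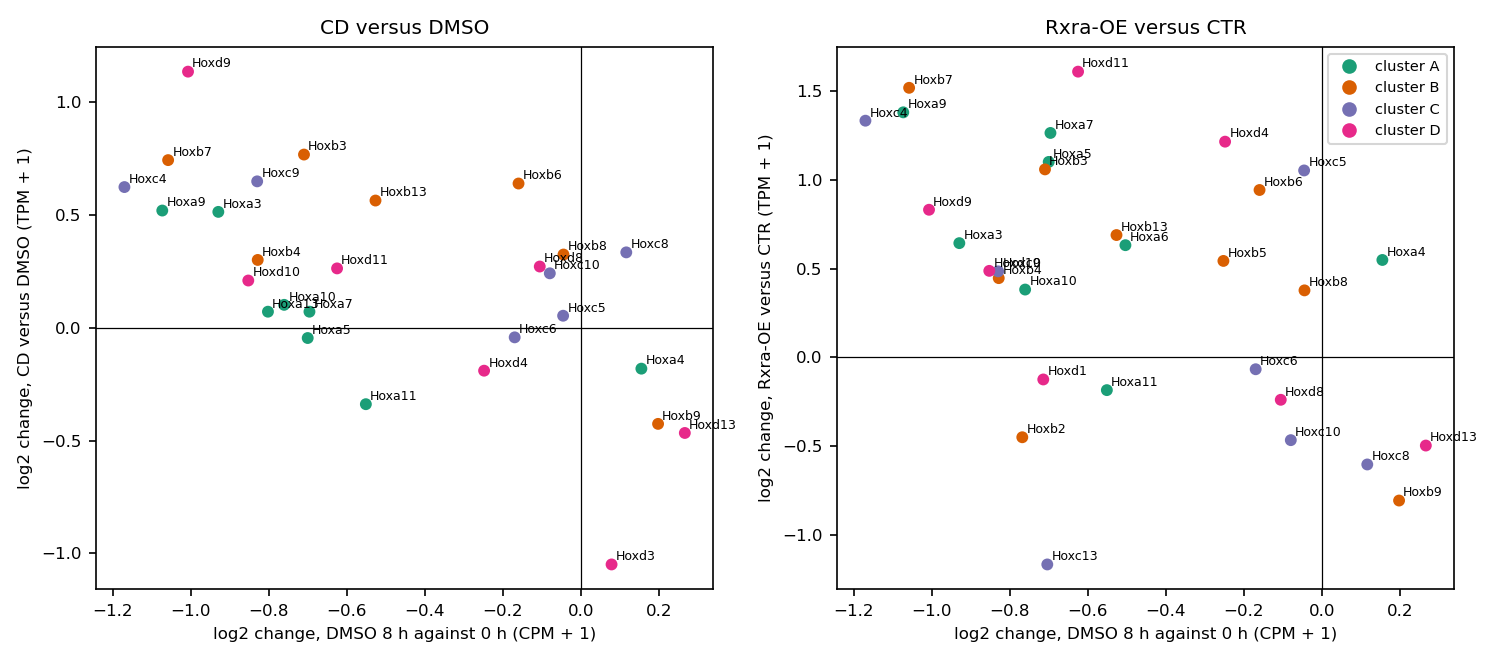
Each point is a Hox gene tested in both tables, coloured by cluster, with its log2(CPM + 1) change over 8 h of actinomycin D in DMSO cultures on the x axis and its log2(TPM + 1) difference on the y axis, CD against DMSO at left and Rxra-OE against CTR at right. Hoxb9 and Hoxd13 lie at the lower right of both panels and Hoxb7, Hoxc4 and Hoxa9 at the upper left.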

How the data were processed

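Per the submitters' processing notes, fastp 0.20.1, HISAT2 2.1.0, StringTie 2.0 and the mm10 build were used; the sources used here give no options, order or strandedness, so genes that share exons with an antisense partner cannot be separated from it. Per the file headers and values, 4 of the 5 deposited tables hold TPM, which keeps no sequencing depth. The deposited signal of the actinomycin D table has no named unit; at least 99.988% of the values of each library came out as whole reads within a tolerance of 0.001, so the values were read as CPM.

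Genes were matched by identifier to GENCODE M21. A gene entered the test when 2 or more libraries of its table reached a value of 1; values were compared on log2(value + 1) with limma 3.58.1 in R 4.3.3 (eBayes with trend, 2-sided), Benjamini-Hochberg adjusted over all genes tested, and fold differences are on that scale, which understates changes of low genes. The CD, Rxra-OE and Exosc3 fits used the 2 groups compared, the actinomycin D fit all 6 groups and the iPSC fit all 4. Each comparison was repeated with libraries centred on the median gene. Tables were normalized separately and levels were not compared across them. The tests were checked on simulated data. edgeR 4.0.16 and DESeq2 1.42.0 were run on the recovered reads as alternatives, where edgeR called 2307 genes higher and 2377 lower at 8 h with DMSO and 4633 and 4641 with CD. Sums, promoter motif counts and figures used Python 3.11.15 with pandas 2.3.3, numpy 2.4.6 and matplotlib 3.10.9. Promoter sequences are RefSeq, GRCm38.p6.

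The members and gene lists were chosen with earlier results of these data known. Per-library values were given for members with a mean of at least 5 in a group of the table, and statistics for up to 6 members a direction with the smallest adjusted p whose libraries do not overlap; from each other list, up to 3 genes past the threshold with the largest difference and a mean of at least 5. Where a member outside this rule is named, it was chosen after its values were seen. Alternatives were another pseudocount, filters, centring, a replicate block, spike-in scaling, only the compared groups, and leaving out each library. Some genes are counted in the totals but are not reported here by name or in the figures.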

Additional observations from a re-analysis of the deposited data

How the results depend on the processing

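Over 195 pairs of a named or called Hox gene and a comparison, 1933 alternative values were computed, of which 1638 kept direction and side of the threshold, 290 kept direction but no longer passed and 5 reversed, all with Rxra-OE relative to the median gene (Hoxa10 -0.28, Hoxb8 -0.27, Hoxb4 -0.18, Hoxc9 -0.0307 and Hoxd10 -0.0248). The counts of Hox genes called moved more, and the cause was not tested. With a filter at 5, CD against DMSO had 2 higher, Rxra-OE 12 higher and 2 lower, shE3 0 higher, DMSO at 8 h 4 lower, CD at 8 h 1 higher and 12 lower, each of DMSO-iPSC, CD-iPSC and R1 against MEF 1 higher, CD-iPSC against DMSO-iPSC 0 higher and DMSO-iPSC against R1 5 higher, where fewer genes were tested. With no filter, CD had 2 lower, shE3 0 higher and 0 lower, CD at 0 h 1 higher, DMSO at 8 h 2 lower, DMSO-iPSC against MEF 1 higher, CD-iPSC against DMSO-iPSC 0 higher and 5 lower, CD-iPSC against R1 0 lower and DMSO-iPSC against R1 0 higher. With a pseudocount of 0.1, shE3 had 0 lower, CD at 8 h 1 higher, CD-iPSC against DMSO-iPSC 0 higher, CD-iPSC against R1 6 lower and DMSO-iPSC against R1 3 higher. Relative to the median gene, Rxra-OE had 11 higher and 12 lower, shE3 0 lower, DMSO at 8 h 2 higher and 2 lower, CD at 8 h 4 higher and 13 lower, CD-iPSC against R1 1 lower and DMSO-iPSC against R1 2 higher. With only the compared groups, CD at 0 h had 0 higher and 0 lower, DMSO at 8 h 1 lower, CD-iPSC against DMSO-iPSC 0 higher and 6 lower, CD-iPSC against R1 1 lower and DMSO-iPSC against R1 2 higher. Spike-in scaling gave 0 higher and 0 lower at 0 h and 3 lower with DMSO at 8 h. On recovered reads edgeR gave 1 higher and 2 lower with DMSO at 8 h and 4 higher and 9 lower with CD. DESeq2 gave 2 and 3, and 4 and 11, and the counts over all genes are given above. With the replicate block, shE3 had 2 lower, CD at 8 h 1 higher, CD-iPSC against R1 0 lower and DMSO-iPSC against R1 0 higher. No other count moved by over 1.5 times. The deviations of same-numbered libraries had correlations of -0.11 in the CD table, -0.14 in Rxra-OE and 0.08 in shE3. In the iPSC table they were -0.13 to 0.06 over 6 pairs. With actinomycin D they ran from -0.69 (CD 0 h with DMSO 8 h) to 0.54 (CD 0 h with DMSO 0 h) over 15 pairs. The labels do not say whether same-numbered libraries are paired, and the main fits took them as unpaired. Leaving out 1 library gave ranges of higher and lower calls of 8 to 13 and 2 to 4 for CD, 20 to 22 and 5 to 7 for Rxra-OE, 0 to 1 and 0 to 2 for shE3, 0 to 12 and 0 to 2 for CD at 0 h, 0 and 0 to 15 for DMSO at 8 h, 0 to 2 and 7 to 19 for CD at 8 h, 1 to 2 and 32 to 33 for DMSO-iPSC against MEF, 0 to 1 and 2 to 5 for CD-iPSC against DMSO-iPSC, 0 to 1 and 0 to 1 for CD-iPSC against R1, and 0 and 0 to 2 for DMSO-iPSC against R1; where a group was left with 1 library, it was assumed to vary like the other groups. Against MEF the 32 lower Hox genes were 32 or 33 in every such fit. Unknown depth in the TPM tables limits what can be said of values under 1 TPM.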
